A study of Mus musculus with 16 samples.

Results

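Gene expression of the early mouse face was compared between embryonic day 9.5 (E9.5) and E10.5 in 6 of the 16 RNA-seq libraries of a study of early craniofacial development. The 6 libraries were chosen by their labels alone. At E9.5 they were cranial mesenchyme, mandibular arch and maxillary arch, and at E10.5 the lateral nasal prominence with the same pair of arches. All embryos were of the outbred CD1 strain, with no treatment or mutation named, and the labels do not say how many embryos a library holds. The mandibular and maxillary arches grow into the lower and upper jaw, and the lateral nasal prominence into the side of the nose. Each stage had 3 libraries from 3 regions, and only the arches were sampled at both stages. The spread behind every test is therefore the spread between regions of a stage, not between repeats of a region, and it may in part be technical. The other 10 libraries, of neural epithelium, ectoderm, mesoderm, medial nasal prominence and olfactory pit, did not enter the fits.

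The deposited value of a gene was a ratio to its own median over the 16 libraries, so values compare libraries and never genes. Here a level is that ratio over the smallest one the gene has in any of the 16 libraries. For 8794 of 15876 genes this smallest ratio came back in 2 or more libraries, and it is called the floor. In the other 7082 genes it occurred once. Levels are as deposited. Log2 differences are E10.5 minus E9.5 after removal of the median shift of each library, unless a sentence says otherwise. Values are listed in the order cranial mesenchyme, mandibular arch and maxillary arch at E9.5, then at E10.5 lateral nasal prominence and again the mandibular and maxillary arch. Read depth per library is unknown, so no counting interval or detection limit can be given.

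Most facial mesenchyme comes from cranial neural crest cells, which leave the neural folds, fill the arches and nasal prominences and later form bone, cartilage and connective tissue. Heterochronic genes set the timing of development. The RNA-binding proteins Lin28a and Lin28b block the maturation of let-7 microRNAs, and mature let-7 in turn represses Lin28a, Lin28b, Trim71, Hmga2 and other genes of early embryos by pairing of its seed with their 3′ UTRs.

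The let-7 seed and some of its matches are shown because several genes that carry them differed widely between the stages. All 8 mature mouse let-7 forms from let-7a to let-7i held by the RefSeq table (GRCm38.p6) share the bases from position 2 to position 8, set in capitals.
mmu-let-7a-5p: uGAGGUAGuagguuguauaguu
mmu-let-7e-5p: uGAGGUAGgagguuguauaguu
mmu-let-7g-5p: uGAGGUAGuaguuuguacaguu
The perfect complement of that seed, CTACCTC, was searched on the transcribed strand of the 3′ UTR of 1 GENCODE transcript per gene (GRCm38). It stood in 10 of the 14 heterochronic genes measured, against 10.7% of the 9122 tested genes that have a 3′ UTR. With 2 or more copies it stood in 6 of the 14, against 1.46% of the 9122. The list holds known let-7 targets by choice, and its 3′ UTRs are longer, with a median of 2140 bases against 1233 for all those genes. Lin28b, Trim71, Hmga2 and Igf2bp1 held 4 copies each, Lin28a and Prtg 2, and Arid3b, Hmga1, Igf2bp2 and Igf2bp3 1. No copy was found in Mycn, Dis3l2, Zcchc6 or Zcchc11. In the following 30-base stretches the match is in capitals and the position counts from the first base of the 3′ UTR.
Lin28a, position 909: gagtgcacagcctgttgaaCTACCTCattt
Lin28b, position 36: cttcacccgggcgggaagtCTACCTCatgc
Trim71, position 166: gtacaacattgcctaagtcCTACCTCagct
Hmga2, position 58: gggcgccgacattcaatttCTACCTCagca
Igf2bp1, position 4730: acgagtataaatggatgaaCTACCTCagtc
Hmga1, position 801: cttctcctctgttcacaaaCTACCTCtgga
A match of these letters is a description of the transcript. Over all tested genes with a 3′ UTR, those with a match were called lower in 6.17% and higher in 6.69% of cases, against 7.53% and 7.04% of those without. Of the 133 genes with 2 or more matches 9.02% were called lower and 6.02% higher.

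The 3 E10.5 libraries compared lay below the 3 E9.5 libraries as a whole. The median of the genes with no shared lowest value was 0.39, 0.48 and 0.53 above the gene's mean over the 6 libraries at E9.5 on the log2 scale, and -0.20, -0.53 and -0.63 from it at E10.5. The stages did not overlap and differed by 0.92, or 1.89-fold, with an exact two-sided permutation p of 0.10, the smallest that 3 libraries against 3 can give. Not every E10.5 library of the study was low. Measured over all 16 libraries, these 3 of E10.5 lay from -0.82 to -0.38 and the 3 of E9.5 from 0.21 to 0.35. The E10.5 medial nasal prominence (0.26) and olfactory pit (0.21) fell in that E9.5 range, and the E10.5 neural epithelium lay from -0.28 to -0.07. Of the genes with a floor, 54.2%, 59.1% and 54.0% stood at it in the E9.5 libraries and 74.3%, 81.5% and 80.4% in the E10.5 libraries. After removal of the shift, limma called 792 of 10342 genes higher at E10.5 (7.66%) and 806 lower (7.79%), with the threshold at an adjusted p (Benjamini-Hochberg) of 0.05 together with a 2-fold difference. With one floor set for all libraries after the shift, the calls were 484 higher (4.68%) and 617 lower (5.97%). With values as deposited 147 genes were called higher (1.42%) and 4042 lower (39.1%), so higher genes made up 49.6% of the calls with the shift removed and 3.51% without. All 806 genes called lower were also called lower as deposited. As every log2 difference is lower by 0.92 without the removal, this was largely fixed beforehand and is no further support. Of the 792 called higher, 147 were also called as deposited and 346 (3.35% of genes tested) did not overlap between the stages as deposited, so the removal of the shift decides most calls of higher values. A gene at the floor in all 3 libraries of a stage passed the filter on low values only through the other stage, so its call carries no weight of its own: this holds for 72 of the 806 lower and 36 of the 792 higher calls.

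Heterochronic genes gave more falls than rises at E10.5. Of 14 members tested 7 fell and 3 rose, beside 7.79% and 7.66% of all genes. Lin28a passed the filter only through E9.5, and without it 6 of 13 fell. The median log2 difference was -1.17 against 0.04 for all genes tested. As deposited 9 fell and 0 rose, beside 39.1% and 1.42% of all genes, with a median of -2.08 against -0.88 for all genes. The list was drawn up with earlier results of these data known.

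Lin28a (ENSMUSG00000050966) had levels of 7.05, 23.8 and 14.0 at E9.5 and stood at the floor, a level of 1, in all 3 E10.5 libraries. The stages did not overlap, and the lowest E9.5 library was at least 3.48-fold above every E10.5 library with the shift removed and at least 7.05-fold as deposited. No p is given, because this difference is also what let Lin28a pass the filter. Its paralog Lin28b had 11.6, 16.9 and 10.7 at E9.5 against 3, 1.74 and 1 at E10.5, and fell by 1.97 on the log2 scale (SE 0.33, limma, Benjamini-Hochberg adjusted p = 0.00986). The highest E10.5 library of Lin28b was the lateral nasal prominence, still under every E9.5 library.

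Trim71 (ENSMUSG00000079259), a let-7 target that encodes a ubiquitin ligase and RNA-binding protein of early embryos, had 20.1, 24.2 and 16.2 at E9.5. At E10.5 it was at the floor in the lateral nasal prominence and mandibular arch and at 1.31 in the maxillary arch. It fell by 3.27 (SE 0.30, adjusted p = 0.00319), a fitted value that depends on the floor. It was at or close to the floor in all 3 E10.5 regions, whereas the 3 E9.5 regions lay close together.

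Prtg, a cell surface protein of the immunoglobulin superfamily, had 11.4, 18.7 and 11.4 at E9.5 and 1.05, 1 and 1 at E10.5, a fall of 2.81 (SE 0.27, adjusted p = 0.00319). Hmga1, an architectural chromatin protein, had 13.1, 16.5 and 13.9 against 1.80, 1 and 1.35 and fell by 2.51 (SE 0.25, adjusted p = 0.00332). Both genes separated the stages with a wide gap. Igf2bp1, which binds and stabilises mRNAs, went from 5.26, 6.13 and 5.86 to 1.93, 1.44 and 1 and fell by 1.11 (SE 0.21, adjusted p = 0.0132). Arid3b, a DNA-binding protein, went from 3.39, 7.87 and 7.04 to 1.31, 1.67 and 1 and fell by 1.22 (SE 0.35, adjusted p = 0.0466). Arid3b was the weakest of these calls: it was called in 1 of 6 fits with 1 library left out (that without E9.5 cranial mesenchyme), and its adjusted p rose to as much as 0.137. Igf2bp1 was not called without the E9.5 or the E10.5 maxillary arch, with an adjusted p of at most 0.0512 and a log2 difference of at least -1.21 and at most -0.96.

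Not every member fell. Mycn, a transcription factor of growing progenitors, had 4.58, 15.2 and 10.2 at E9.5 and 1, 2.22 and 2.78 at E10.5, a log2 difference of -1.37 that did not pass (SE 0.58, adjusted p = 0.129; 0.0107 as deposited). Igf2bp2 and Igf2bp3 had levels between 1.5 and 2.44 at E9.5 and between 1 and 1.59 at E10.5. Those gaps are close to the median shift, and with it removed their log2 differences were 0.26 and 0.08, with no call. Dis3l2, the nuclease that degrades pre-let-7, had a log2 difference of -0.19, also with no call.

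Hmga2, with 4 seed matches, went the other way: levels of 2.10, 2.52 and 2.28 at E9.5 and 3.32, 5.21 and 4.47 at E10.5, without overlap. It rose by 1.81 (SE 0.32, adjusted p = 0.0110), and as deposited its difference was 0.89, under the 2-fold needed for a call. The terminal uridylyltransferases Zcchc6 and Zcchc11, which add uridine to pre-let-7, rose by 1.59 (SE 0.21, adjusted p = 0.00526) and 1.54 (SE 0.41, adjusted p = 0.0389). Zcchc6 had 1, 1.24 and 1.49 at E9.5 and 2.10, 1.87 and 1.89 at E10.5, 0.67 as deposited and likewise under 2-fold. Zcchc11 overlapped as deposited, with 1.07, 1.84 and 1.57 against 1.61, 2.02 and 3.49, and its call was lost as deposited (adjusted p = 0.177), with a common floor (0.0778) and in 4 of 6 fits with 1 library left out (any E9.5 library or the E10.5 mandibular arch, at most 0.104).

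**Figure D1:**
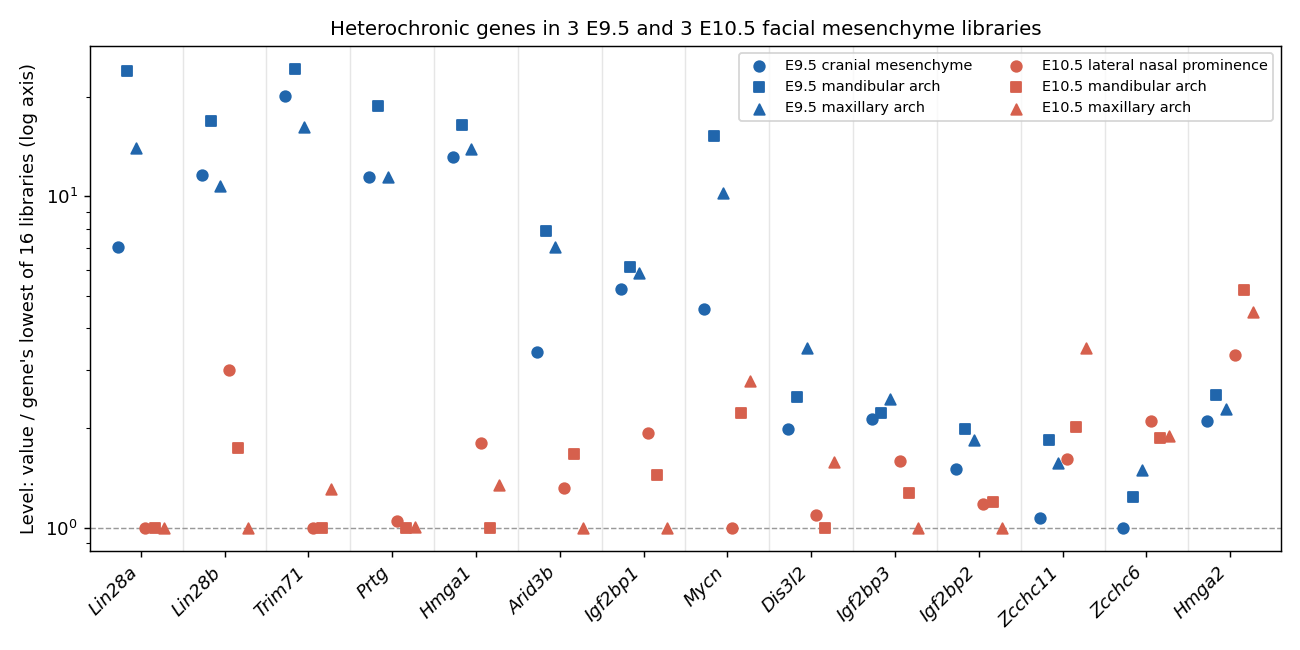
Levels (relative to the floor or lowest value, log axis, as deposited) of the 14 heterochronic genes; each point is 1 library, blue for E9.5 and red for E10.5, with the shape giving the region. Lin28a is at 7.05 or above in the E9.5 libraries and at 1 in the E10.5 libraries, and Hmga2 is higher in the 3 E10.5 libraries.

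The RefSeq table holds 13 let-7 hairpin genes, and 6 of them lie within the span of a longer gene, of which 4 have a value here. Mature let-7 was not measured. Their link to let-7 was looked up after their values were seen. Ncrna00085 (ENSMUSG00000080316), listed by RefSeq as a synonym of Spaca6, spans the hairpin of let-7e and its neighbours miR-99b and miR-125a. It had levels of 4.85, 6.84 and 13.4 at E9.5 and 60.1, 69.8 and 100.2 at E10.5. It rose by 4.21 (SE 0.45, adjusted p = 0.00374), or 18.5-fold, and by 3.29 as deposited (adjusted p = 0.00164).

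2610203C20Rik, listed by RefSeq as Mir100hg, spans let-7a-2 and had 1.47, 2.87 and 5.37 at E9.5 and 11.8, 7.44 and 6.40 at E10.5. It rose by 2.46 (SE 0.44, adjusted p = 0.0116), and by 1.54 as deposited (adjusted p = 0.0338). Both host genes separated the stages without overlap and were called in each of 6 fits with 1 library left out. Of the other hosts, Huwe1 (let-7f-2) had a log2 difference of 0.33 (adjusted p = 0.466) and Wdr82 (let-7g) one of -0.70 (adjusted p = 0.0620). As deposited Wdr82 was called lower (-1.62, adjusted p = 0.0030) and Huwe1 was not called (-0.59, adjusted p = 0.116). The 3 hairpins with a row of their own, let-7d, let-7f-1 and let-7g, were at or just above the floor in all 6 libraries.

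The other 10 libraries, which the fit did not use, hold 5 of E10.5 and 5 of E8.5 or E9.5, from other tissues. With a shift removed from each of these too, 79 of the 806 genes called lower (9.80%) were also lower without overlap there, against 2.78% of all genes tested. Among genes called higher the figures were 107 of 792 (13.5%) and 4.41%. Of the heterochronic genes that fell, 5 of 7 were lower without overlap there: Lin28a, Lin28b, Trim71, Prtg and Hmga1 (4 of 6 without Lin28a). Lin28a ranged from 28.9 to 48.4 in the 5 earlier libraries and from 1 to 6.13 in the 5 of E10.5. Trim71 ranged from 23.3 to 36.0 and from 1.45 to 5.11. Ncrna00085 ranged from 1 to 10.4 in the earlier and from 19.4 to 72.4 in the E10.5 libraries, and 2610203C20Rik from 1 to 3.16 and from 3.05 to 11.5.

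**Figure D2:**
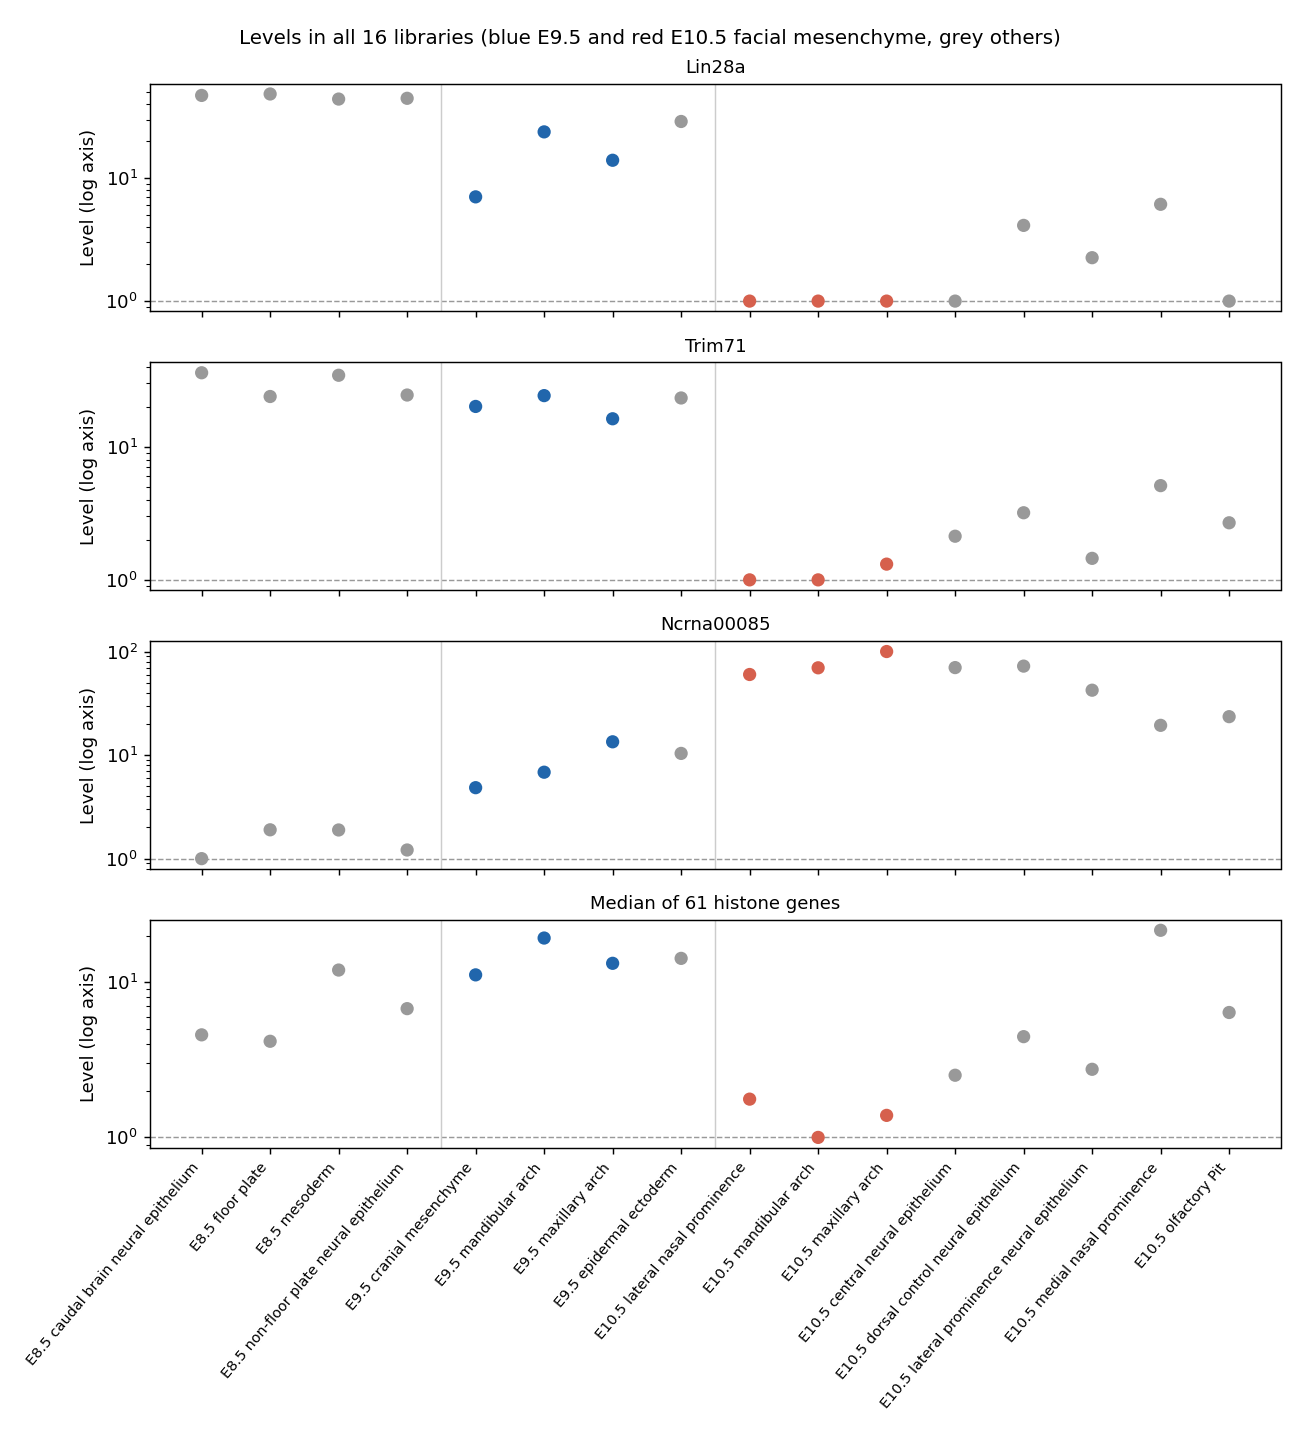
Levels (log axis, as deposited) of Lin28a, Trim71 and Ncrna00085 and the median level of 61 histone genes in each of the 16 libraries, ordered by stage; blue and red points are the E9.5 and E10.5 facial mesenchyme libraries and grey points the others. In the 5 other E10.5 libraries Lin28a is at most 6.13 and Ncrna00085 at least 19.4, while the histone median is 21.6 in the E10.5 medial nasal prominence and at most 1.77 in the 3 E10.5 facial libraries.

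Among genes that did not overlap as deposited and had a mean level of at least 5, the largest rises outside the lists were those of single genes with unlike roles. Slitrk6, a transmembrane protein of neural and inner ear tissue, had 1, 1 and 1.88 at E9.5 and 10.4, 9.56 and 36.2 at E10.5, and rose by 4.55 (SE 0.77, adjusted p = 0.00973). Bcl11a, a zinc finger repressor, had 1, 1 and 4.84 against 12.4, 15.1 and 11.7 and rose by 3.86 (SE 0.57, adjusted p = 0.00683). The E9.5 cranial mesenchyme and mandibular arch were at the floor for both genes, so the fitted values depend on it.

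Filip1l rose by 3.28, Bcl9, a co-activator of beta-catenin, by 3.19, and Mpped2 by 3.13, with adjusted p between 0.00374 and 0.00762. Mpped2 had 1.25, 2.74 and 1.96 at E9.5 and 8.82, 7.77 and 9.90 at E10.5, the E10.5 regions being close together. Bcl9 had 1, 1.17 and 1.88 against 4.08, 6.08 and 10.1. Fgf5, a growth factor gene of the pluripotency list, had 1.05, 1.37 and 1.15 against 3.19, 3.33 and 4.53 and rose by 2.54 (SE 0.27, adjusted p = 0.00374). In the same list Sall4, a factor of early progenitors, fell by 1.52 (SE 0.27, adjusted p = 0.0110). The microRNA hairpin rows mmu-mir-297a-2 and Mir1970 rose by 4.37 and 3.03; which RNA is counted on such a row was not tested.

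Igf1, insulin-like growth factor 1, had 3.71, 2.90 and 9.55 at E9.5 and 113, 11.7 and 78.1 at E10.5. The stages did not overlap, yet the E10.5 mandibular arch was only just above the E9.5 maxillary arch. It rose by 4.24 with a wide error (SE 1.16, adjusted p = 0.0405). That call was lost as deposited (adjusted p = 0.0720), with a common floor (0.0868) and in 5 of 6 fits with 1 library left out (at most 0.147), the exception being the fit without the E10.5 mandibular arch.

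**Figure D3:**
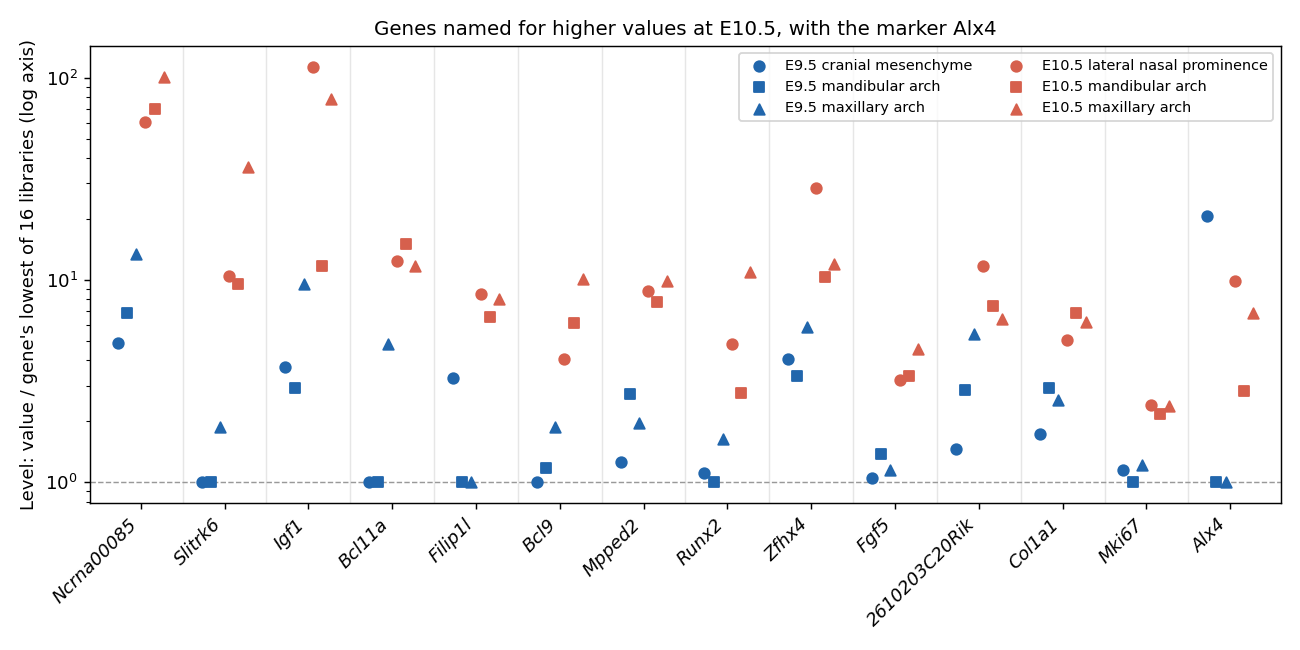
Levels (log axis, as deposited) of 13 genes called higher at E10.5, beside Alx4, which was not called; each point is 1 library, blue for E9.5 and red for E10.5, with the shape giving the region. Ncrna00085 is between 4.85 and 13.4 at E9.5 and between 60.1 and 100.2 at E10.5, while the Alx4 points of the stages overlap.

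Collagen genes of connective tissue were mostly higher in fitted value, with few calls. Of 10 fibrillar and related collagens measured 7 were tested. Of these 2 rose and 0 fell, beside 7.66% and 7.79% of all genes. The median log2 difference was 1.07 (0.15 as deposited), against 0.04 (-0.88) for all genes. As deposited 1 was called higher and 1 lower, beside 1.42% and 39.1% of all genes. Col1a1 (ENSMUSG00000001506), the main chain of type I collagen, had 1.74, 2.92 and 2.55 at E9.5 and 5.06, 6.86 and 6.20 at E10.5. The stages did not overlap and Col1a1 rose by 2.27 (SE 0.34, adjusted p = 0.00702), and by 1.35 as deposited (adjusted p = 0.00937).

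Col2a1, the collagen of cartilage, had 4.87, 4.25 and 7.95 against 7.36, 6.51 and 7, overlapping as deposited. It rose by 1.26 (SE 0.30, adjusted p = 0.0263) but not as deposited (0.34, adjusted p = 0.352), and it was called in 1 of 6 fits with 1 library left out, that without the E9.5 maxillary arch (at most 0.0847 in the others). Col1a2, the other chain of type I collagen, had 44.6, 21.1 and 15.7 against 46.3, 19.9 and 39.5, with a log2 difference of 1.35 that did not pass (SE 0.67, adjusted p = 0.187). The 2 chains of 1 fibre thus differed in their calls, a difference that was not itself tested. Col3a1 (1.03), Col11a1 (1.07), Col5a2 (0.85) and Col5a1 (-0.76) did not pass either, and Col6a2, Col6a3 and Col12a1 were near the floor and not tested.

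Other matrix genes did not share a direction. Of 28 tested 1 rose and 1 fell, a smaller share each way than the 7.66% and 7.79% of all genes. Timp2, an inhibitor of matrix proteases, rose by 1.62 (SE 0.24, adjusted p = 0.00667, and 0.0638 as deposited). Serpinh1, the collagen chaperone, fell by 1.64 (SE 0.31, adjusted p = 0.0139). Serpinh1 had 6.50, 14.3 and 9.05 at E9.5 and 1.63, 1.48 and 1.74 at E10.5, and its call was lost without the E10.5 lateral nasal prominence or mandibular arch (at most 0.0520). Of 11 basement membrane genes 1 fell, beside 7.79% of all genes: Hspg2 or perlecan, by 1.52 (SE 0.23, adjusted p = 0.00675).

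The libraries carried the markers of facial mesenchyme at both stages. Prrx1, a mesenchyme factor, had 16.5, 53.5 and 41.2 at E9.5 and 26.8, 51.7 and 41.5 at E10.5, and Twist1 had 16.7, 28.5 and 23.9 against 25.5, 20.2 and 21.7. Neither passed, and the stages overlapped for both. Pdgfra, the PDGF receptor of neural crest mesenchyme, had 10.7, 8.86 and 9.82 against 6.89, 5.09 and 2.91, with a log2 difference of -0.15 (adjusted p = 0.892). These 3 genes were picked for the text after their values were seen.

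Alx4 (ENSMUSG00000040310), a homeobox gene of the frontonasal region, was highest in the cranial mesenchyme and lateral nasal prominence of each stage: 20.8, 1 and 1 at E9.5 and 9.85, 2.83 and 6.87 at E10.5. Its stages overlapped and the log2 difference of 1.98 did not pass (SE 1.26, adjusted p = 0.290). Without E9.5 cranial mesenchyme the difference was 3.48. Both E9.5 libraries left were then at the floor, so Alx4 passed the filter only through E10.5 and no p is given. Both arches were higher at E10.5, by 2.5 in the mandibular and 3.94 in the maxillary arch with 1 library a side. These values start from the floor at E9.5 and depend on it. Hand2, a factor of the distal lower jaw, had 25.2 and 15.5 in the mandibular arches of E9.5 and E10.5 and was at the floor in the other 4 libraries. Pax7 and Pax3 were above the floor in the cranial mesenchyme (2.67 and 3.81) and the lateral nasal prominence (14.4 and 6.50) alone of the 6. Hoxa2, a gene of the second arch and hindbrain, was at 18.3 in the E9.5 maxillary arch and at the floor in the other 5 libraries.

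Of 34 frontonasal and facial mesenchyme factors tested 6 rose and 0 fell, beside 7.66% and 7.79% of all genes, with a median log2 difference of 0.55 (-0.37 as deposited) against 0.04 (-0.88) for all genes. Zfhx4, a large zinc finger and homeodomain factor, had 4.04, 3.35 and 5.88 at E9.5 and 28.4, 10.4 and 12 at E10.5 and rose by 2.74 (SE 0.40, adjusted p = 0.00658). Its relative Zfhx3 rose by 1.64 (SE 0.26, adjusted p = 0.00843), with 2.34, 2.33 and 3.28 against 6.43, 3.46 and 3.64. Both separated the stages without overlap as deposited, where Zfhx4 was called and Zfhx3 was not (0.73, adjusted p = 0.0926). The other 4, Osr1 (1.86), Irx3 (1.66), Snai2 (1.47) and Eya2 (1.35), overlapped as deposited and were not called there either (adjusted p from 0.120 to 0.423). With a common floor 4 of the 34 factors were called higher, beside 4.68% of all genes. Snai2 and Eya2 were lost in 6 of 6 fits with 1 library left out. Osr1 was lost without E9.5 cranial mesenchyme or mandibular arch and Irx3 without the E9.5 mandibular or maxillary arch, of 3 fits each that could be made (at most 0.113 and 0.125).

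Among cartilage and bone genes Runx2, the master factor of bone formation, had 1.11, 1 and 1.62 at E9.5 and 4.84, 2.76 and 10.9 at E10.5. It rose by 3.03 (SE 0.52, adjusted p = 0.00991), and by 2.11 as deposited (adjusted p = 0.0105). The maxillary arch was the highest of the E10.5 regions and the mandibular arch the lowest, still above each E9.5 library. The other of 6 members that rose, beside 7.66% of all genes, was Pth1r, the receptor of parathyroid hormone, by 1.38 (SE 0.35, adjusted p = 0.0331). Pth1r overlapped as deposited, with 1, 1.52 and 1.32 against 2.67, 1.95 and 1, and its call was lost there (0.362) and in each fit with 1 library left out but that without the E10.5 maxillary arch (at most 0.0949). With a common floor 1 of the 6 members rose, beside 4.68% of all genes.

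The ligands and receptors that pattern the face gave few calls, to be read beside the 7.66% of all genes called higher and 7.79% called lower. Of 14 genes of the BMP and TGF-beta pathways 2 rose and 0 fell. With a common floor, where 4.68% and 5.97% of all genes were called higher and lower, 1 rose and 0 fell. The receptor Bmpr2 had 1.61, 1.80 and 2.31 at E9.5 and 2.83, 3.16 and 3.42 at E10.5 and rose by 1.65 (SE 0.25, adjusted p = 0.00729), with a difference as deposited of 0.73, under 2-fold and not called, while the ligand Bmp4, with 1, 1.45 and 1.47 against 3.66, 1.21 and 4.87, rose by 2.03 (SE 0.52, adjusted p = 0.0340). As deposited Bmp4 differed by 1.11 and was not called (adjusted p = 0.11). Bmp4 was also lost without any 1 of the E9.5 libraries or the lateral nasal prominence (at most 0.0902). Of 20 Wnt pathway genes 3 rose and 1 fell, and with a common floor 0 rose and 1 fell. The receptor Fzd2 fell by 2.63 (SE 0.25, adjusted p = 0.00319), from 14.8, 11.6 and 15.8 to 1.70, 1 and 1. Its relative Fzd1 (1.58), the Wnt agonist Rspo2 (1.94) and the nuclear factor Tcf7l2 (1.39) rose, and all 3 overlapped and were not called as deposited (adjusted p from 0.164 to 0.267). Each was also lost without the E9.5 maxillary arch or the E10.5 lateral nasal prominence. Further losses came without the E9.5 mandibular arch for Fzd1 and Tcf7l2, without E9.5 cranial mesenchyme for Rspo2, and without the E10.5 mandibular arch for Fzd1 and Rspo2 (at most 0.138).

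In the FGF pathway 1 of 13 genes fell, Dusp6, the feedback phosphatase of FGF-ERK signalling. Dusp6 had 17.9, 15.3 and 10.9 at E9.5 and 1.41, 2.77 and 2.21 at E10.5 and fell by 1.90 (SE 0.44, adjusted p = 0.0253), with calls lost without E9.5 cranial mesenchyme, the E9.5 mandibular arch or the E10.5 lateral nasal prominence (at most 0.0741). In the hedgehog pathway 1 of 9 rose, the transcription factor Gli3, by 1.93 (SE 0.50, adjusted p = 0.0359; 0.107 as deposited), which was lost without any 1 of the E9.5 libraries or the lateral nasal prominence (at most 0.0929). With a common floor 0 of the 9 rose, beside 4.68% of all genes. Ednra, the endothelin receptor that patterns the lower jaw, had 8.89, 6.53 and 7.16 against 14.1, 12.2 and 15.1. It did not overlap as deposited and rose by 1.80 (SE 0.46, adjusted p = 0.0326; 0.124 as deposited), the 1 call among 6 distal arch genes tested, and with 1 library left out it was called only without E9.5 cranial mesenchyme (at most 0.12 in the other 5 fits). None of 9 retinoic acid and 4 PDGF pathway genes passed.

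Of 8 neural crest genes tested 1 rose and 1 fell, beside 7.66% and 7.79% of all genes. With a common floor 0 rose and 1 fell, beside 4.68% and 5.97% of all genes. Ets1, a factor of migrating cranial crest and of endothelium, had 9.09, 14.9 and 8.65 at E9.5 and 1.79, 1.29 and 1.28 at E10.5 and fell by 1.96 (SE 0.44, adjusted p = 0.0230), with calls lost without any 1 of the E10.5 libraries (at most 0.104). The receptor gene Kit rose by 1.08 (SE 0.31, adjusted p = 0.0482) and overlapped as deposited, and with 1 library left out it was called only without the lateral nasal prominence (at most 0.14 in the others). Of 20 imprinted and insulin-like growth factor genes tested 2 rose and 2 fell, beside 7.66% and 7.79% of all genes. With a common floor 1 rose and 1 fell, beside 4.68% and 5.97%. Igfbp3 fell by 1.63 (SE 0.40, adjusted p = 0.0300) and Nnat by 2.11 (SE 0.51, adjusted p = 0.0281). Gnas rose by 1.48 (SE 0.33, adjusted p = 0.0227; 0.19 as deposited), and the other rise was that of Igf1, given above. Igfbp3 was lost without the E9.5 mandibular arch or any 1 of the E10.5 libraries (at most 0.125). Nnat was lost without E9.5 cranial mesenchyme, the lateral nasal prominence or either maxillary arch (at most 0.082). Gnas was lost without E9.5 cranial mesenchyme or either mandibular arch (at most 0.0665).

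Genes of the cell cycle gave calls in both directions. Of 31 tested 4 fell and 1 rose, a larger share of falls than the 7.79% of all genes and a smaller share of rises than the 7.66%. With so few calls the difference in shares was not tested. The median was -0.42 against 0.04 for all genes, and as deposited 21 were called lower, a larger share than the 39.1% of all genes. The cyclin Ccnd3 had 9.88, 7.17 and 7.34 at E9.5 and 1.70, 1 and 1.15 at E10.5 and fell by 1.77 (SE 0.25, adjusted p = 0.00594). Cdc20, an activator of the anaphase-promoting complex, fell by 1.29, Ccnd2 by 1.14 and Cdk1 by 1.03, with adjusted p from 0.0111 to 0.0435. Ccnd2 was lost in 6 of 6 and Cdk1 in 5 of 6 fits with 1 library left out, that without the E9.5 maxillary arch being the exception (at most 0.125 and 0.105). Mki67, the proliferation antigen, had 1.14, 1 and 1.21 against 2.42, 2.18 and 2.37 without overlap and rose by 1.97 (SE 0.22, adjusted p = 0.00412), and by 1.06 as deposited (adjusted p = 0.00610).

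Several glycolysis genes fell. Of 18 hypoxia and glycolysis genes tested 7 fell and 0 rose, beside 7.79% and 7.66% of all genes, with a median of -0.94 (-1.85 as deposited) against 0.04 (-0.88) for all genes. Pfkl, the liver-type phosphofructokinase, had 7.69, 10.9 and 10.8 at E9.5 and 1.28, 1.11 and 1 at E10.5 and fell by 2.18 (SE 0.21, adjusted p = 0.00319). Ldha, lactate dehydrogenase A, went from 8.39, 6.16 and 8.38 to 1.31, 1.05 and 1 and fell by 1.85 (SE 0.21, adjusted p = 0.00447). Pkm, pyruvate kinase, went from 8.98, 8.77 and 9.02 to 1.83, 1.58 and 1 and fell by 1.73 (SE 0.24, adjusted p = 0.00584). The E9.5 regions were close together for Pkm, and no E10.5 library of these 3 genes came near an E9.5 one.

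Tpi1 fell by 1.87, Eno1 by 1.52 and Aldoa by 1.51, which encode triosephosphate isomerase, enolase and aldolase, and the glucose transporter gene Slc2a1 was the seventh. Tpi1 was not called without E9.5 cranial mesenchyme or mandibular arch (adjusted p at most 0.0619). After removal of trends with GC content and transcript length 5 of these genes were called. In the other 10 libraries 5 of the 7 were lower without overlap in E10.5 libraries, beside 2.78% of all genes tested. Fewer cells with high expression and less RNA per cell cannot be told apart in bulk tissue, here or for any gene above.

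Histone genes formed the largest block of lower values. Of 59 tested, of 61 measured, 49 fell and 0 rose, beside 7.79% and 7.66% of all genes. The median was -2.51 against 0.04 for all genes. As deposited 55 were called lower, beside 39.1% of all genes. Of the 49, 8 were at the floor in all 3 E10.5 libraries. Among the 45 tested genes with neither stage wholly at the floor 41 fell, beside 734 of 9533 over all tested genes. Their median level was 11.2, 19.3 and 13.3 at E9.5 and 1.77, 1 and 1.39 at E10.5. Hist2h3c2 had 91.1, 162 and 103 against 2.60, 1 and 2.59 and fell by 5.01 (SE 0.41, adjusted p = 0.00280). Hist1h2bm fell by 4.74, Hist2h3b by 4.53, Hist1h2bf by 4.08 and Hist1h2bb by 4. Histone genes are near-identical copies of each other and short reads may be split among them, so single members are uncertain.

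Some short RNAs of the nucleus and nucleolus, a list added after the values were seen, also fell. Of 79 tested 21 fell and 1 rose (Snord72, by 2.39), beside 7.79% and 7.66% of all genes. As deposited 48 were called lower, beside 39.1% of all genes. Of the 21, 8 were at the floor in all 3 E10.5 libraries. Among the 62 with neither stage wholly at the floor 13 fell, beside 734 of 9533 over all tested genes. Rmrp, the RNA of an RNase that processes ribosomal RNA, had 80.4, 175 and 112 at E9.5 and 3.98, 1 and 3.23 at E10.5 and fell by 4.72 (SE 0.51, adjusted p = 0.00383). Terc, the telomerase RNA, had 13.2, 36.6 and 13.5 and was at the floor in the 3 E10.5 libraries, at least 6.04-fold lower with the shift removed and 13.2-fold as deposited. Scarna2 went from 12.4, 28.6 and 16.4 to 1, 1 and 1.36. As background, replication-dependent histone mRNAs and most of these RNAs carry no poly(A) tail, and how RNA was selected for sequencing is not given in the sources used here.

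These groups were not low in every E10.5 library. The histone median was 21.6 in the E10.5 medial nasal prominence and 6.39 in the olfactory pit and ranged from 2.52 to 4.46 in the 3 of E10.5 neural epithelium, against 4.17 to 14.3 in the 5 earlier libraries outside the comparison. The median level of the short RNAs was 1.51 in the E10.5 medial nasal prominence and 1.21 in the olfactory pit. It was 1 in the 3 of E10.5 neural epithelium, as in the 3 E10.5 libraries compared. Of the 49 histone genes that fell 0 were lower without overlap in the other E10.5 libraries, and 1 of the 21 short RNAs was. The share of all genes tested was 2.78%, too small for 49 or 21 genes to show a difference. The part of RNA selection in these and other differences was not tested. Further rows among the largest falls carry microRNA hairpin names, mmu-mir-2133-1 (4.90), mmu-mir-2133-2 (4.81), mmu-mir-685 (4.85) and mmu-mir-689-1 (4.53), and the largest fall among the named genes was that of AL672259.2, which fell by 6.20 (SE 0.70, adjusted p = 0.00407) from 229, 255 and 336 to 7.35, 1 and 1.

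About as many RNAs encoded in the mitochondrial genome, also a list added later, rose as did not pass. Of 29 tested 15 rose and 0 fell, beside 7.66% and 7.79% of all genes, with a median of 1.48 against 0.04 for all genes. With a common floor 11 rose, beside 4.68% of all genes. As deposited 9 rose and 4 fell, beside 1.42% and 39.1% of all genes, with a median of 0.57 against -0.88. The median level overlapped between the stages, with 2.08, 2.40 and 1.89 at E9.5 and 2.73, 2.23 and 5.67 at E10.5. The respiratory subunit mt-Nd2 had 1, 1.55 and 1.17 at E9.5 and 3.49, 4.2 and 20.6 at E10.5, highest in the maxillary arch, and rose by 3.38 (SE 0.71, adjusted p = 0.0182). mt-Nd6 rose by 3.21 and the transfer RNA mt-Te by 4.06. The calls of mt-Nd2 and mt-Nd6 were lost without E9.5 cranial mesenchyme or maxillary arch (at most 0.0631 and 0.0685). In the other 10 libraries 0 of these 15 were higher without overlap at E10.5, beside 4.41% of all genes tested, a share too small for 15 genes to show a difference. Genes of the respiratory chain encoded in the nucleus had 1 rise and 4 falls among 76 tested, beside 7.66% and 7.79% of all genes, and a median of 0.11. The rise was Uqcrb (2.05, and not called as deposited, 1.14 with adjusted p = 0.0558). The falls were Atp5g2, Atp5g1, Atp5d and Cox7c (by 1.93, 1.61, 1.34 and 1.30). With 1 library left out Atp5d was called only without the E9.5 mandibular arch (at most 0.105) and Cox7c only without the E9.5 mandibular arch or the lateral nasal prominence (at most 0.115). Uqcrb was lost without the E9.5 mandibular or maxillary arch (at most 0.0548). Of 79 cytosolic ribosomal protein genes 5 fell, led by Rps14 (by 2.06), a smaller share than the 7.79% of all genes, with a median of 0.06.

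**Figure D4:**
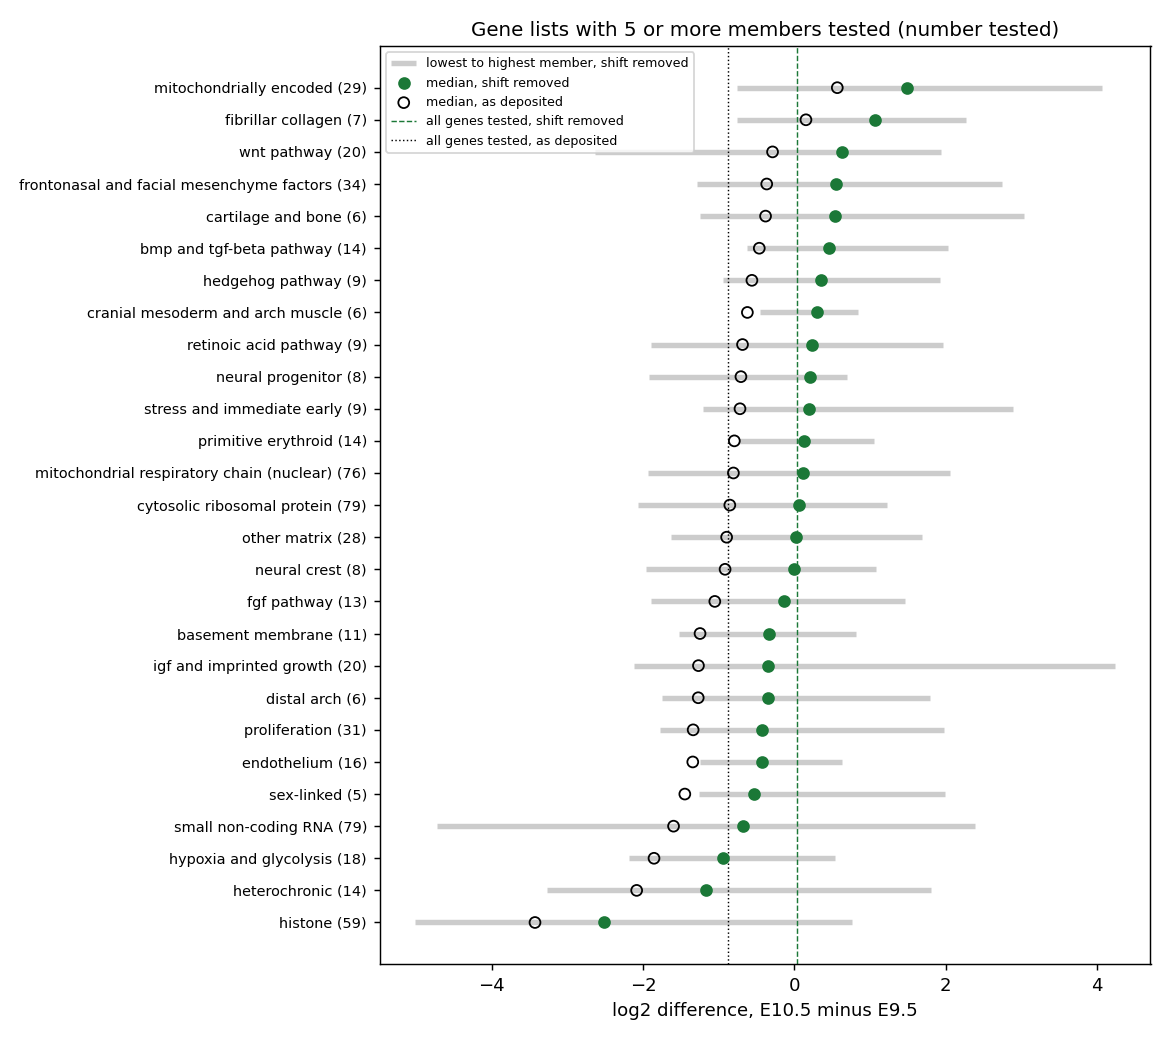
Median log2 difference, E10.5 minus E9.5, of each gene list with 5 or more members tested: filled points with the shift removed, open points as deposited, grey bars from the lowest to the highest member with the shift removed, and vertical lines for all genes tested. Histone (-2.51), heterochronic (-1.17) and glycolysis genes (-0.94) lie lowest and mitochondrially encoded genes (1.48) and collagens (1.07) highest.

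Markers of other cells that the dissected regions could hold gave no call in the lists of endothelium (16 tested), primitive erythroid cells (14), macrophages and platelets (3), neurons and ganglia (4) and surface epithelium (1), with the shift removed. Beside the 7.66% and 7.79% of all genes called higher and lower, lists this small cannot show a lack of change. Endothelial genes had a median of -0.43 and were called lower in 8 of 16 as deposited (39.1% of all genes), 3 with a common floor and 1 with trends on GC content and length removed. As deposited 2 erythroid genes were called lower. With the GC and length trends removed the 1 epithelial gene was called higher. Summed levels of genes with a floor, which are added over unlike genes and only compare libraries, ranged from 95.5 to 111 at E9.5 and from 41.8 to 45.6 at E10.5 for endothelium. For erythroid genes they ranged from 782 to 4373 and from 443 to 1546, the embryonic globin Hbb-y being highest in E9.5 cranial mesenchyme (1766) and lowest in the E10.5 maxillary arch (96.4). Of 20 surface epithelium genes 13 were at the floor in all 6 libraries, among them Krt8, Cdh1, Esrp1 and Trp63, and Epcam was above it only in E9.5 cranial mesenchyme (3.23). Of 22 neuronal genes 16 were at the floor in all 6, among them Tubb3, Stmn2 and Elavl3. In the list of neural progenitors 1 of 8 fell, Msi1 (by 1.93), beside 7.79% of all genes. The part of blood and vessel cells in the differences was not tested.

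Calls also differed with the composition of the transcript. Of the tested genes, 96.1% could be matched to a GENCODE transcript. In the quintile of genes with the lowest GC content 11.4% were called higher and 3.27% lower, and in the quintile with the highest GC content 3.72% and 16.4%. The median log2 difference went from 0.23 to -0.31 between these quintiles. Genes called lower had a median GC content of 54.4%, genes called higher 46.8% and all tested genes 49.3%. By transcript length, 5.78% were called higher and 10.1% lower in the shortest quintile and 10.97% and 3.62% in the longest.

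With trends on GC content and length removed, 787 genes were called higher and 541 lower of 9943 (7.92% and 5.44%), of which 560 and 452 were among the calls above. Heterochronic genes then gave 6 falls and 3 rises, Arid3b being the member lost (adjusted p = 0.0748). Histone falls went from 49 to 30 and falls of short RNAs from 21 to 12. Of the collagens the same number, 2, rose. The cause of the trend with GC content was not tested.

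**Figure D5:**
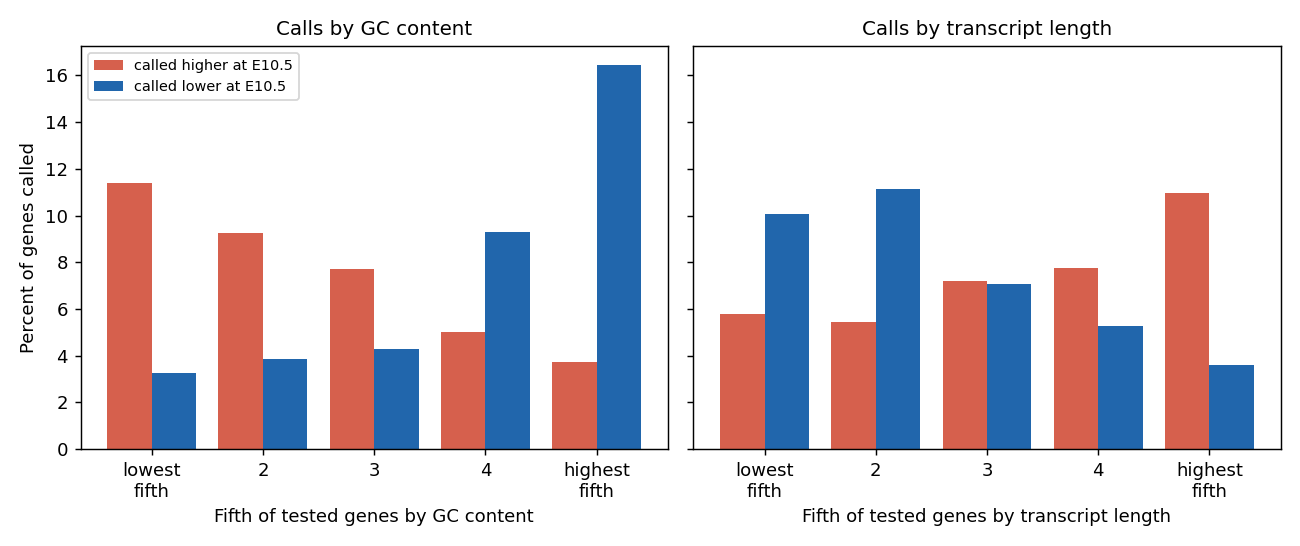
Percent of tested genes called higher (red) or lower (blue) at E10.5 in each quintile of genes by GC content (left) and by transcript length (right). Calls of lower values go from 3.27% in the lowest to 16.4% in the highest quintile of GC content.

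With the arches alone, which are the regions sampled at both stages, 2 libraries face 2. limma then called 0 genes higher and 1 lower, AL672259.2, while 1201 and 966 passed an unadjusted p under 0.05 with a fold of at least 2. The genes that follow separated the stages without overlap over all 6 libraries, so they could only have the same direction in each arch. That agreement is no further support, and only the sizes are given. Lin28a differed by -3.57 in the mandibular and -2.65 in the maxillary arch, Trim71 by -3.60 and -2.47, Ncrna00085 by 4.35 and 4.05, Col1a1 by 2.23 and 2.44, Runx2 by 2.47 and 3.91 and Pfkl by -2.28 and -2.27. Values at the floor make those of Lin28a and Trim71 depend on it. With 1 library a side these values have no error.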

How the data were processed

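RNA of the 16 libraries was read as 50-base single-end reads, per the labels. The authors deposited a ratio per gene and library, which was read from the values: each gene had a median of 1 over the 16 libraries. The submitters' processing notes name the mouse build mm9 and the tools Bowtie, TopHat, TopHat2 and Cufflinks. Not given in the sources used here are tool versions, the annotation, the unit before division and the depth of a library, and no coordinates are printed because the reference at hand was another build. Of 52495 values above a shared lowest value, 99.8% were multiples of it with 6 significant digits (relative tolerance 2e-07), which points to a floor set before the division.

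Each library's shift was the median, over 7082 genes whose lowest value no 2 libraries share, of its log2 ratio minus the gene's mean over the 6 libraries. Log2 ratios without the shift, with no pseudocount, were fitted by limma 3.58.1 (R 4.3.3, mean-variance trend), 3 libraries against 3, for the 10342 genes above the floor in at least 3 of the 6. Calls needed a Benjamini-Hochberg adjusted p under 0.05 over all genes tested and a fold of at least 2. Every adjusted p in the text is from limma. Values at the floor entered as they stand. The script was tested on simulated data, with differences set in genes with no shared lowest value. It called 49.0% of true log2 differences of 1.5 and 85.0% of those of 2.5. A gene that did not pass may thus still differ.

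Named genes were the 4 proposed markers, all heterochronic and collagen genes, up to 6 called members per list with the largest difference, and the 12 largest differences each way without overlap as deposited and a mean level of at least 5, leaving out predicted genes, pseudogenes and receptor segments. Genes, members and 31 lists were chosen with earlier results of these data known. Chosen after the values were seen were 2 lists (short and mitochondrial RNAs), the correction for GC content and length, and Prrx1, Prrx2, Twist1, Pdgfra, Terc, Scarna2, Snord72, Hand2, Pax3, Pax7, Hoxa2, Hbb-y and the let-7 host genes. Numbers of libraries limit the precision.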

Additional observations from a re-analysis of the deposited data

How the results depend on the processing

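Counts of genes called (792 higher, 806 lower) were 147 and 4042 as deposited. Higher calls were 484 with a common floor (617 lower) and 1278 with no filter on low values (859 lower). With the arches alone they were 0 and 1, and 1 (Gm10800) and 1 in the arches with region as replicate block, the only pairing the labels allow. Leaving out 1 library at a time gave 414 to 622 higher and 459 to 811 lower, with counts moved by over 1.5 times without E9.5 cranial mesenchyme, either E9.5 arch or the E10.5 mandibular arch. No alternative called a gene in the opposite direction. Other shifts, filters, limma settings and a fit of all 16 libraries kept both counts within 1.5 times. Of 89 named genes called, 67 were called as deposited, 69 with a common floor and 54 in each fit that left out 1 library and could be made; Lin28a could not be tested without an E9.5 library. Signs that turned were those of uncalled genes: as deposited Igf2bp3 (-0.84), Igf2bp2 (-0.66), Col5a2 (-0.070), Twist1 (-0.0079) and Huwe1 (-0.59), and with GC content and length removed Igf2bp3 (-0.042) and Prrx2 (0.55). With 1 library left out, Prrx2 ranged from -0.80 to 0.44 (above 0 without the E9.5 mandibular or E10.5 maxillary arch), Pdgfra from -0.30 to 0.10 (above 0 without the E10.5 maxillary arch) and Dis3l2 from -0.48 to 0.0060 (above 0 without the lateral nasal prominence). The cause was not tested in any case. Region and stage cannot be told apart outside the arches, and depth is unknown.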
